A study of Mus musculus with 3 samples.

Results

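This report describes 9 imprinted genes, *H19*, *Igf2*, *Peg3*, *Peg10*, *Mest*, *Plagl1*, *Grb10*, *Ndn* and *Nnat*, in single cells of a mouse embryonic stem cell (mESC) differentiation toward tendon and in cells of the embryonic mouse tail. The genes were named from a list, and their rows were found by symbol in all 3 count tables, 9 of 27755 genes listed for the culture at D10 and for the tail at E14.5, and 9 of 25936 listed for the earlier stage, D6 PM. They were chosen by symbol with their summed UMI levels in the clusters of these libraries already known, so that those levels are a description and no test was made of them. With 1 library for each condition no p-value can be given. Intervals are exact 95% intervals and cover counting error only.

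An imprinted gene is expressed mainly from the chromosome of one parent, and several such genes tune the growth of the embryo. *Igf2* encodes a growth factor read from the paternal copy, and *H19* is a long noncoding RNA read from the maternal copy of the same locus. They are known to share enhancers and a control region, at which binding of CTCF to the maternal copy keeps *Igf2* silent there. *Plagl1* and *Peg3* encode zinc finger proteins, *Grb10* encodes an adaptor that restrains insulin and IGF receptor signaling, and *Mest* encodes a protein of the alpha/beta hydrolase fold. *Peg10* derives from a retrotransposon and is needed in the placenta, *Ndn* encodes necdin of the MAGE family, and *Nnat* encodes neuronatin, a small membrane protein.

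The D10 culture and D6 PM came from mESCs carrying the ScxGFP tendon reporter, which were grown on mouse embryonic fibroblast feeders before differentiation. D6 PM was the stage of paraxial mesoderm (PM), reached by embryoid bodies treated with the BMP receptor inhibitor LDN-193189 and then also with CHIR, a WNT activator. The D10 culture had been moved at D6 to TGFβ1, the hedgehog agonist SAG and FGF2, and the tail was taken from ScxGFP mouse embryos at E14.5. Several ScxGFP lines were used in the study, and which of them, or how many embryos, entered a library is not given in the sources used here. Unique molecular identifiers (UMIs) per cell had a median of 5622 over the 7821 cells of the D10 culture, of 13512 over 2052 tail cells and of 8171 over 5954 cells of D6 PM. From 3 to 10 cell barcodes were shared between any pair of libraries.

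Each cell carries a cluster code given by the authors, 1 set of codes for culture and tail and another set for D6 PM. Code 1 was tendon-like in both libraries, with *Scx*, the tendon transcription factor, at 2410 counts per 1000000 UMIs (CPM) in the culture and 1472 CPM in the tail, although *Tnmd*, a marker of mature tendon, reached only 23.6 and 93.0 CPM. Code 2 held cycling tendon-like cells. Code 4 was cartilage-like, with *Col2a1* at 2271 CPM in the culture and 4282 CPM in the tail, and the culture cells of this code also held *Scx* at 1852 CPM. Code 11 was endothelium-like in both. The summed erythroid markers stood at 1016, 5668 and 4399 CPM in codes 1, 2 and 4 of the tail and at 26.6, 4.95 and 6.62 CPM in those of the culture, and their part in the ratios between the libraries was not tested beyond the denominator without haemoglobin genes. Codes 3, 5 and 6 held cells of different kinds in the 2 libraries, pluripotent-like cells against skin epithelium-like cells in code 3, so that ratios between the libraries in these codes compare unlike cells. Code 7 in both libraries was shallow and codes 5, 6 and 9 of the culture and code 9 of the tail were mixed, and they were left unnamed. These names rest on markers in the counts, and some differ from the paper's. By cell numbers (855 culture, 241 tail), code 4 is the paper's cluster 3, described there as without *Scx*. Code 3 (1088 and 49) is its cluster 2, named fibrocartilage. Code 5 (556 and 121) is its cluster 4, whose culture cells the paper proposes may be pluripotent. The reason for the difference was not tested. In D6 PM, code 1 was epithelium-like, code 2 pluripotent-like, code 3 cycling and epithelium-like, code 4 somite-like with *Meox1* at 187 CPM, and code 5 fibroblast-like with some white blood cell genes, while code 6 mixed erythroid and endothelial genes.

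In the GENCODE M21 annotation of GRCm38, *H19* lies on the minus strand of chromosome 7 at chr7:142575529-142578143, and *Igf2* on the same strand at chr7:142650766-142666816, 72.6 kb away with no protein-coding gene between them. The genome build of the counts is not given in the sources used here, but 99.1% of the 27755 symbols match this annotation. *Peg3* (chr7:6703892-6730431) and *Ndn* (chr7:62346569-62350262) are on the same chromosome. *Peg10* is at chr6:4747306-4760517, *Mest* at chr6:30723547-30748465, *Plagl1* at chr10:13060504-13131694, *Grb10* at chr11:11930508-12038683 and *Nnat* at chr2:157560078-157562522. A 3′ UMI library reads the end of a transcript, and 99.7% of the last 1000 exon bases of *Igf2* are also exons of *Gm49394*, a gene model on the same strand. Reads that fall there cannot be assigned to 1 of the 2 genes, so that the level of *Igf2* and the size of its ratio to *H19* are uncertain. *Gm49394* is listed for culture and tail and not for D6 PM, so that whether *Igf2* was counted alike in D6 PM is not known, and the ratios of *Igf2* to D6 PM rest on this. On the opposite strand, *Copg2* covers 91.2% of the last 1000 exon bases of *Mest*.

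*H19*, *Igf2* and *Mest* each host a microRNA that was not measured here. The mature sequences are shown because the level of the host RNA is the subject of the results, and capitals mark the seed, bases 2 to 8 (RefSeq, GRCm38.p6).
mmu-miR-675-5p in *H19*: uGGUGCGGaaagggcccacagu
mmu-miR-675-3p in *H19*: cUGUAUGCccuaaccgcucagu
mmu-miR-483-3p in *Igf2*: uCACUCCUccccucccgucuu
mmu-miR-335-5p in *Mest*: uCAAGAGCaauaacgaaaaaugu
No seed is shared among these 4 sequences.

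Promoter windows of 300 bases, from 250 before to 50 after a start site, were listed by RefSeq for 7 of the 9 genes, with 13 windows in all. No window was listed for *H19* or *Peg10*. The windows of *Peg3* and *Ndn* are printed because these genes were furthest apart between culture and tail in tendon-like cells. Capitals mark GGGGCCCC, the core recognised by Plagl1, which reads the same on both strands.
*Peg3*, chr7:6730370-6730669, minus strand, GRCm38.p6: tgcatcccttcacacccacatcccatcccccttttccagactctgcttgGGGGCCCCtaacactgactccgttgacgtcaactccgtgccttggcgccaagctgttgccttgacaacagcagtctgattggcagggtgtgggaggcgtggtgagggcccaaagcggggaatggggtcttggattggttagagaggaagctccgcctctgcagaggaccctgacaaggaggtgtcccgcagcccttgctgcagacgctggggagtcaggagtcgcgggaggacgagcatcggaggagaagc
*Ndn*, chr7:62348027-62348326, plus strand, GRCm38.p6: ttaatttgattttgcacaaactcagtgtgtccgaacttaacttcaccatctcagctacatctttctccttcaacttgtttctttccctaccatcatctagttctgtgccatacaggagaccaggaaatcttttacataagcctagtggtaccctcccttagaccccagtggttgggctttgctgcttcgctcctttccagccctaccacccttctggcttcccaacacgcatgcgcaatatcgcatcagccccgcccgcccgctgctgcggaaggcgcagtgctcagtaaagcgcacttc
The GGGGCCCC core was found in 1 of the 13 windows, that of *Peg3*, and in 1.08% of 32851 promoter windows of mouse genes. Neither GCCATNTT, a YY1 core searched on both strands, which 6.05% of all windows hold, nor TATAAA, which 13.6% hold, was found in the 13 windows. The windows held 13 CpG in *Peg3* and 11 in *Ndn*, against a median of 7 over all windows.

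The 9 genes together took 0.847% of all UMIs in the tendon-like cells of the culture, 8470 CPM, and 9244 CPM in its cartilage-like cells, against 656 CPM in its pluripotent-like cells. In the tail they took 5158 CPM in tendon-like and 7841 CPM in cartilage-like cells and 53.7 CPM in erythroid-like code 12. Endothelium-like cells of the tail lay between its tendon-like and cartilage-like cells, with 5930 CPM. In D6 PM the sums ran from 369 CPM in pluripotent-like to 2766 CPM in somite-like cells. Cartilage-like cells thus held the highest sum in both culture and tail, and the lowest sums were in endoderm-like code 13 of the culture, with 627 CPM, and in tail code 12.

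**Figure D1:**
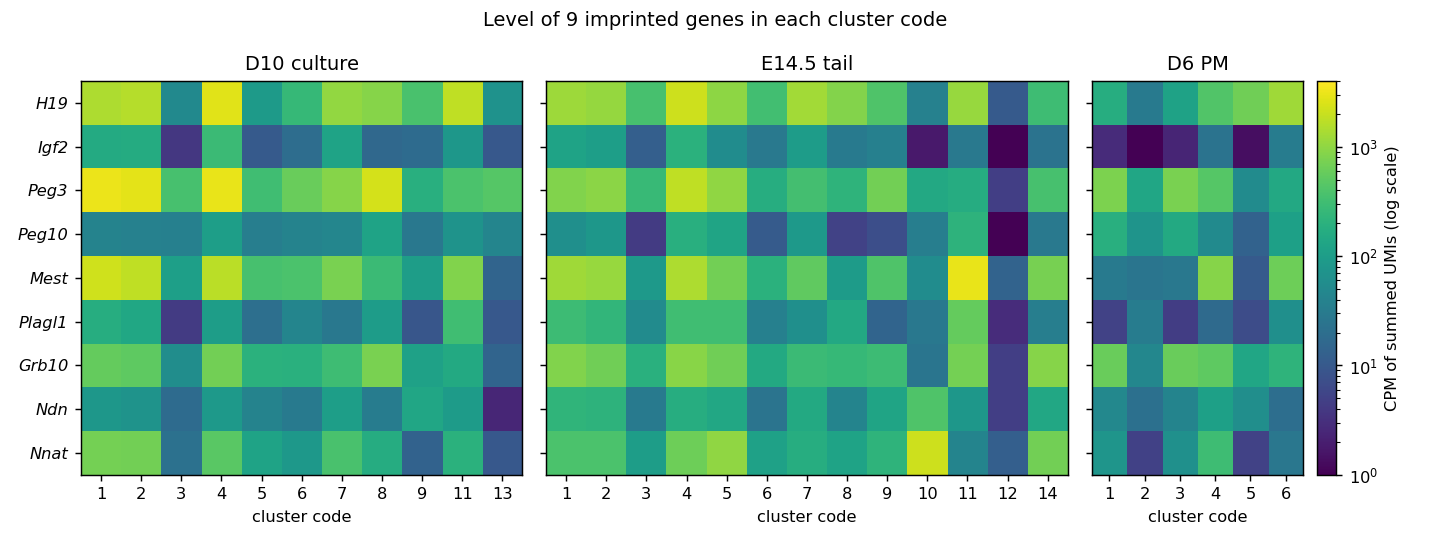
Level of each of the 9 genes (rows) in every cluster code with at least 20 cells (columns) of D10 culture, E14.5 tail and D6 PM, as CPM of summed UMIs on a log color scale, with values under 1 CPM drawn as 1. *H19* was highest in cartilage-like code 4 of culture and tail, 2717 and 2151 CPM, *Mest* peaked at 3010 CPM in endothelium-like code 11 of the tail and *Nnat* at 2158 CPM in nerve-like code 10.

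*H19* stood at 2717 CPM (2661 to 2774) in the cartilage-like cells of the culture, 1783 CPM in endothelium-like, 1595 CPM in cycling and 1465 CPM (1447 to 1483) in tendon-like cells. Its level fell to 50.6 CPM in the pluripotent-like cells, the lowest of 11 codes. In the tail it was likewise highest in cartilage-like cells, at 2151 CPM, with tendon-like cells at 1202 CPM, endothelium-like cells at 1111 CPM and the nerve-like and erythroid-like code 12 cells at 38.5 and 10.4 CPM. In D6 PM the order was different, with 1212 CPM in the mixed erythroid and endothelial code 6, 653 CPM in the fibroblast-like, 421 CPM in the somite-like and 30.4 CPM in the pluripotent-like cells. Intervals of neighbors in the order overlapped for 2 of 10 pairs in the culture, 5 of 12 in the tail and 0 of 5 in D6 PM.

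*Igf2*, as counted, shared with *H19* its leading code in culture and tail, and the codes below it came in another order, endothelium-like cells of the culture standing at 81.9 CPM. It was highest in cartilage-like cells, 287 CPM in the culture and 202 CPM in the tail, with 161 CPM and 124 CPM in tendon-like cells and 167 and 106 CPM in cycling tendon-like cells. Pluripotent-like cells of the culture held 3.84 CPM, and tail code 12 held 0 UMIs, which allows up to 2.82 CPM at 3 counts. In D6 PM it reached 32.2 CPM in code 6 and 23.2 CPM in somite-like cells, and 0.575 to 2.81 CPM elsewhere, so that only these 2 codes stood above the rest. Neighbors in the order overlapped for 8 of 10 pairs in the culture and 8 of 12 in the tail, so that much of the lower order is not resolved.

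*Peg3* stood in the culture at 3103 CPM in tendon-like, 3086 CPM in cartilage-like and 2315 CPM in the epithelium- and endoderm-like cells of code 8, and the first 2 of these overlapped. In the tail it was 1834 CPM in cartilage-like, 999 CPM in muscle-like and 832 CPM in tendon-like cells. In D6 PM the epithelium-like codes 1 and 3 led with 776 and 765 CPM, whose intervals overlapped, and the fibroblast-like cells were lowest with 54.8 CPM. Somite-like cells held 447 CPM.

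*Mest* had its highest level in the endothelium-like cells of the tail, 3010 CPM (2921 to 3102), more than in cartilage-like cells with 1434 CPM or tendon-like cells with 1208 CPM. In the culture the endothelium-like cells held 840 CPM and the tendon-like cells led with 2187 CPM. Among the members, *Mest* had the widest range between codes of D6 PM. It stood there at 878 CPM in somite-like cells, 648 CPM in code 6 and 10.5 to 30.5 CPM in the others. Its highest level over its lowest was 83.5 in D6 PM, 150 in the culture and 213 in the tail. *Plagl1* was likewise highest in endothelium-like cells of both libraries, 558 CPM in the tail and 312 CPM in the culture. Tendon-like cells held 297 CPM of *Plagl1* in the tail and 176 CPM in the culture, and pluripotent-like cells of the culture held 4.18 CPM.

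*Grb10* was spread over most codes. It was highest in the epithelium- and endoderm-like cells of the culture, 757 CPM, with 693 CPM in cartilage-like and 557 CPM in tendon-like cells, and the first 2 overlapped. In the tail the cartilage-like cells held 906 CPM, the glia-like cells of code 14 held 879 CPM, and the tendon-like cells 824 CPM. Nerve-like cells of the tail held 24.9 CPM. In D6 PM it ran from 46.5 CPM in pluripotent-like to 604 CPM in epithelium-like cells. *Peg10* stood in tendon-like cells at 40.7 CPM in the culture and 61.2 CPM in the tail, and in cartilage-like cells at 106 and 189 CPM. In the tail endothelium-like cells held 212 CPM (189 to 237), which overlapped with the cartilage-like cells (175 to 205), and the highest level in D6 PM was 186 CPM in epithelium-like cells. In the culture all 10 pairs of neighbors in its order overlapped.

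*Ndn* and *Nnat* peaked in the nerve-like cells of the tail, at 403 CPM and 2158 CPM. *Nnat* was next in muscle-like cells, with 1020 CPM, then in glia-like cells with 694 CPM, and was lowest in the tail, outside the erythroid-like cells, in endothelium-like cells with 41.7 CPM. *Ndn* was next in tendon-like cells, with 230 CPM. In the culture *Nnat* was highest in tendon-like and cycling tendon-like cells, at 701 and 694 CPM, whose intervals overlapped, and *Ndn* ranged from 2.43 CPM in endoderm-like code 13 to 134 CPM in code 9, which has 53 cells. In D6 PM both were highest in somite-like cells, *Nnat* with 300 CPM and *Ndn* with 110 CPM.

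The first comparison set the culture against the tail within a code, which addresses how closely the mESC-derived cells match those of the embryo. A gene was called at a CPM ratio of at least 2-fold, for genes whose UMIs in the 2 groups summed to 100 or more. In tendon-like code 1, 2 of the 9 genes were called, 1 in each direction, where 22.1% of 11898 genes were called, 8.33% higher and 13.7% lower. *Peg3* was higher in the culture, 3103 against 832 CPM, a ratio of 3.73 (3.64 to 3.82). *Ndn* was lower, 80.0 against 230 CPM, a ratio of 0.348 (0.325 to 0.372). *Nnat* and *Mest* stood just inside the threshold with ratios of 1.85 and 1.81, *Igf2* and *H19* were at 1.29 and 1.22, and *Grb10*, *Peg10* and *Plagl1* were at 0.675, 0.664 and 0.592. The median ratio of the 9 was 1.22, beside 0.883 over all genes tested. Members therefore differed in both directions, and 2 of 9 is close to the background share. Centred on the median ratio of all genes, 4 of 9 passed 2-fold, with *Mest* and *Nnat* added.

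In cycling tendon-like code 2, 3 of 9 were called, where 15.9% of 10209 genes were. *Peg3* was higher, 2848 against 958 CPM (ratio 2.97), and *Ndn* and *Peg10* were lower with ratios of 0.337 and 0.475. In cartilage-like code 4, 1 of 9 was called, where 14.6% of 8252 genes were. This was *Plagl1*, with 102 CPM in the culture and 313 CPM in the tail, a ratio of 0.327 (0.288 to 0.370). *Ndn* lay at the threshold with 0.502, and *Peg3* was at 1.68. *Ndn*, *Plagl1*, *Peg10* and *Grb10* were below 1, and *H19*, *Igf2*, *Peg3* and *Mest* above 1, in each of the 3 codes, while *Nnat* was above 1 in codes 1 and 2 and at 0.766 in code 4.

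**Figure D2:**
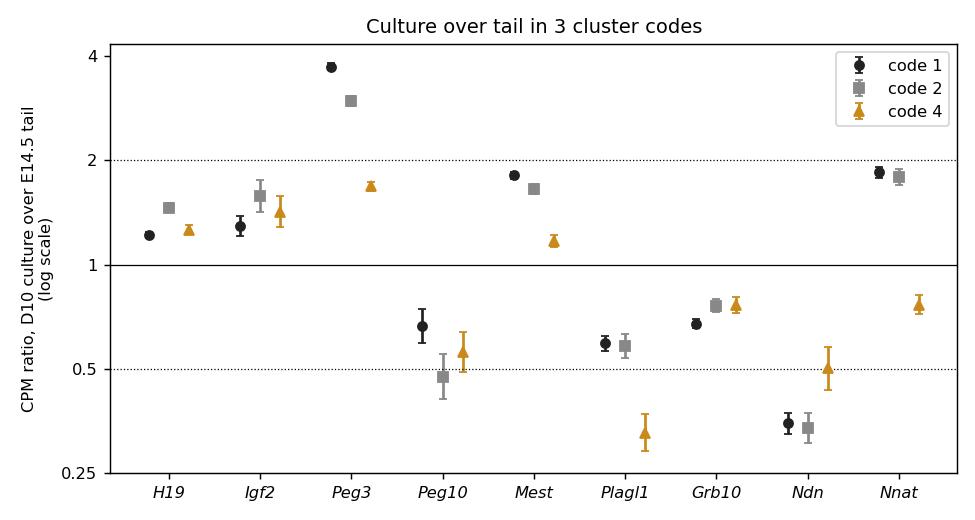
Ratio of CPM in the D10 culture over the E14.5 tail for each gene in tendon-like code 1, cycling tendon-like code 2 and cartilage-like code 4, on a log scale, with exact 95% counting intervals and dotted lines at 2-fold. *Peg3* lies above 2 in codes 1 and 2 and *Ndn* below 0.5 in the same codes, while *Plagl1* lies below 0.5 in code 4 alone.

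Endothelium-like code 11, with 58 culture and 71 tail cells, showed 5 of 8 genes called, where 20.3% of 3575 genes were. *Nnat* and *Peg3* were higher in the culture, with ratios of 4.80 and 2.25. *Grb10* was lower, 155 against 718 CPM (ratio 0.215), as were *Mest*, 840 against 3010 CPM (0.279), and *Peg10* (0.329). *Igf2* had 27 and 40 UMIs and was not compared. In code 8, epithelium- and endoderm-like in the culture and skin epithelium-like in the tail, 4 of 8 were called, all higher in the culture, where 23% of 5301 genes were called in either direction and 12.1% higher. *Peg3* was at 2315 against 218 CPM and *Peg10* at 124 against 5.16 CPM. The codes of unlike or mixed cells gave 5 of 8 in code 3 (background 35.4%), 8 of 9 in code 5 (28%), 1 of 6 in code 6 (90.6%), 2 of 5 in code 7 (10.5%) and 4 of 6 in code 9 (35.4%). In code 6 the median ratio of all genes was 4.68, and centred on it 5 members passed 2-fold and *Peg3* went from 3.38 to 0.721, so that nothing is read from this code.

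The second comparison followed the culture from D6 PM to D10. Summed over whole libraries, 7 of 9 genes were called, 6 higher and 1 lower at D10, where 20.8% of 15831 genes were called, 10% higher and 10.8% lower. *Igf2* went from 286 UMIs, 5.51 CPM, to 5673 UMIs, 106 CPM, a ratio of 19.3. *Mest* went from 149 to 1246 CPM (8.39), *Plagl1* from 15.2 to 98 CPM (6.46), *Nnat* from 73.6 to 419 CPM (5.69), *Peg3* from 480 to 1924 CPM (4.01) and *H19* from 254 to 1016 CPM (4.0). *Peg10* was lower, 117 against 44.3 CPM (0.379), and *Grb10* and *Ndn* were at 0.961 and 1.19. Whole libraries differ in their kinds of cells, and more cells of a kind and more RNA per cell cannot be told apart in these sums.

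Between the somite-like cells of D6 PM and the tendon-like cells of the D10 culture, 6 of 9 were called, all higher at D10, where 22.7% of 11177 genes were called and 12.4% were higher. These were the same 6 genes, with ratios of 10.0 for *Plagl1*, 6.95 for *Peg3*, 6.93 for *Igf2*, 3.48 for *H19*, 2.49 for *Mest* and 2.34 for *Nnat*. *Grb10* was at 1.08, *Peg10* at 0.770 and *Ndn* at 0.726. Between pluripotent-like cells of the 2 stages, 4 of 8 were called, where 8.66% of 10988 genes were. *Nnat*, *Mest* and *Peg3* were higher at D10 with ratios of 4.36, 4.27 and 2.64, from low levels at D6 of 5.01, 25.4 and 134 CPM. *Plagl1* was lower, 32.1 CPM at D6 and 4.18 CPM at D10, a ratio of 0.130. The comparisons with the tail, with D6 PM and within the culture share the same tendon-like cells of the culture.

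Within the culture, cartilage-like cells differed from tendon-like cells by 2-fold in 1 of 9 genes, *Peg10* with a ratio of 2.61, where 6.88% of 10676 genes did. *H19* and *Igf2* followed with 1.85 and 1.79. In the tail, *Peg10* and *Peg3* were called with ratios of 3.09 and 2.20, where 9.74% of 10565 genes were, and *H19* and *Igf2* were at 1.79 and 1.62. *Mest* and *Nnat* had ratios under 1 in the culture, 0.767 and 0.692, and over 1 in the tail, 1.19 and 1.67. Cycling tendon-like cells differed from tendon-like cells in 0 of 9 genes in the culture (background 4.57%) and 0 of 9 in the tail (7.72%). Pluripotent-like cells of the culture were lower than tendon-like cells in 8 of 9, where 45% of 11980 genes were called in either direction and 23.5% were lower, with ratios from 0.0237 for *Plagl1* to 0.228 for *Ndn*. *Peg10* was the exception, with a ratio of 0.914. The clusters were made from all genes, so that these differences are a description.

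The ratio of *H19* to *Igf2* UMIs ran from 9.12 to 10.7 over codes 1, 2 and 4 of culture and tail. *H19* had 24303 and *Igf2* 2666 UMIs in tendon-like cells of the culture, a ratio of 9.12 (8.76 to 9.49), and 12167 and 1257 UMIs in those of the tail, a ratio of 9.68 (9.13 to 10.3). Cartilage-like cells stood at 9.46 in the culture and 10.7 in the tail, and cycling cells at 9.54 and 10.3. More *H19* per *Igf2* was found in code 8 of the culture (53.2) and in endothelium-like cells of the culture (21.8) and tail (39.4). In the tail, skin epithelium-like codes 3 and 8 (28.4 and 27.6) and muscle-like code 5 (17.3) were also higher. The intervals of all these codes lay above those of tendon-like cells. Those of culture codes 3, 6 and 9 (13.2, 13.6 and 20) lay above that of tendon-like cells of the culture. Not all other codes stood apart, as culture code 5 with 8.62 (6.73 to 11.2) and tail code 9 with 10.9. In D6 PM somite-like cells were lowest with 18.1 (15.3 to 21.6), and codes 1, 2, 3 and 6 stood at 62.5, 52.9, 50.6 and 37.7. Fibroblast-like cells of D6 PM held 3853 *H19* and 8 *Igf2* UMIs, a ratio of 482 (244 to 1116), the highest of the 29 codes with an *Igf2* UMI.

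**Figure D3:**
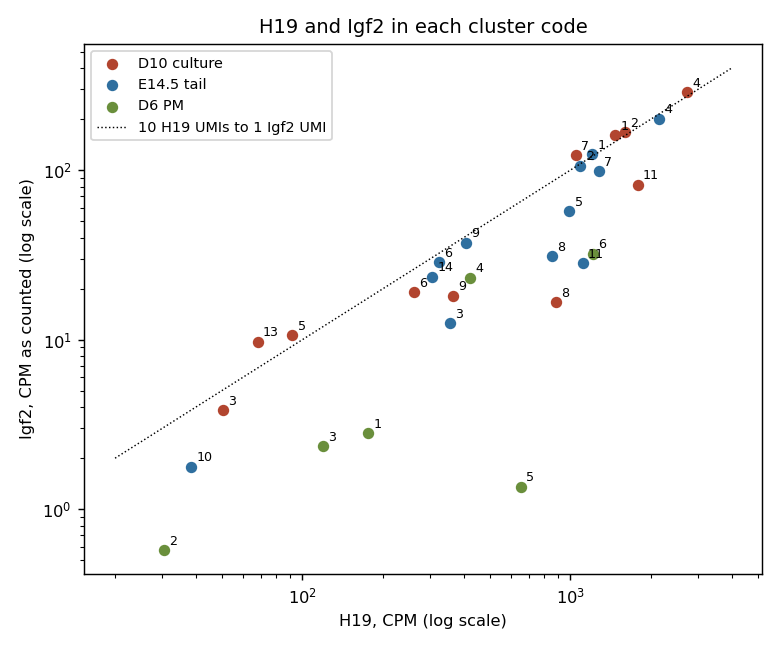
CPM of *H19* (horizontal axis) and CPM of *Igf2* as counted (vertical axis), both on log scales, for each cluster code of the 3 libraries with at least 20 cells and at least 1 *Igf2* UMI, with the code printed beside its point and a dotted line at 10 *H19* UMIs to 1 *Igf2* UMI. Codes 1, 2 and 4 of culture and tail lie close to the line, and fibroblast-like code 5 of D6 PM lies furthest below it with a ratio of 482.

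Single cells showed a pattern that these sums hide. To compare cells of different depth, each cell was thinned to 3000 UMIs, and 1157 culture, 100 tail and 1006 D6 PM cells under that depth were left out. In tendon-like cells of the tail, 87.5% of 678 cells (84.7 to 89.9) held an *H19* UMI, and 51.9% of 2595 cells did in the culture, although the culture had the higher mean, 4.51 against 3.64 UMIs per cell. Unthinned, the shares were 96.9% at a median of 13463 UMIs and 55.7% at a median of 4918.5 UMIs. In erythroid-like code 12 of the tail, taken as the background of that library, 3.2% of cells held an *H19* UMI after thinning at a median unthinned depth of 8391.5 UMIs. The other libraries had no code of erythroid-like cells alone, and in their pluripotent-like cells the share was 7.03% in the culture at a median depth of 10369.5 UMIs and 3.27% in D6 PM at 11208 UMIs. A Poisson spread around the culture mean would leave 1.10% of cells without *H19*, and 48.1% had none. In the tail 2.63% would be without and 12.5% were.

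The tendon-like and cartilage-like cells of the culture fell toward both ends. Of its tendon-like cells 1248 had 0 *H19* UMIs, 379 had 1 to 4 and 968 had 5 or more, with a mean of 11.2 in the last. In its cartilage-like cells the 3 numbers were 258, 42 and 341, so that 6.55% lay between, and the mean of the last was 14.9. In the tail 58.0% of tendon-like cells lay between, and 5 of 240 cartilage-like cells (2.08%) had 0 UMIs. Somite-like cells of D6 PM had 55.3% of 606 cells at 0, 38.8% between and 5.94% at 5 or more. In endothelium-like cells of the culture 25 of 47 cells had 0 UMIs and 3 lay between, against 11 and 33 of 66 in the tail. The spread was not limited to the culture and was not found in all of its codes. In code 6 of D6 PM 52.4% of 168 cells had 0 UMIs, 14.9% lay between and 32.7% had 5 or more. In code 8 of the culture 47.3% of 148 cells had 0 UMIs and 31.1% lay between. Muscle-like code 5 of the tail had 36.7% of 109 cells at 0 and 40.4% between. The other members showed a smaller excess of zeros, in percentage points, in tendon-like cells of the culture. *Nnat* had 34.4% where 11.2% was the Poisson share, *Grb10* 36.8% against 18.5%, and *Ndn* 78.5% against 78.0%. *Mest* had 8.63% against 0.177% and *Peg3* 1.16% against 0.00943%. As a multiple of the Poisson share, the zeros of *Mest* and *Peg3* were not fewer than those of *H19*.

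**Figure D4:**
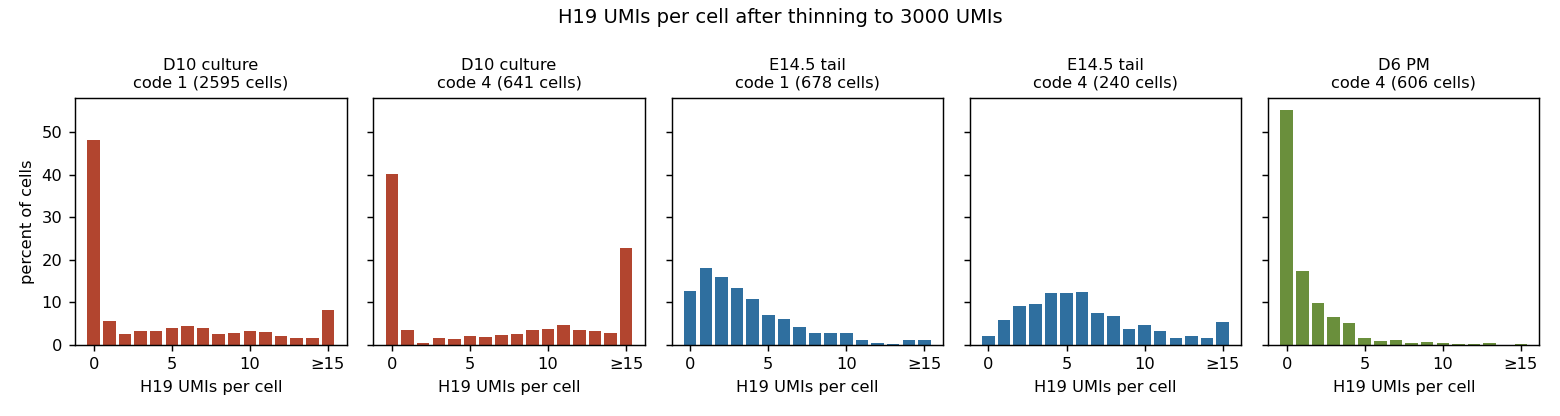
Share of cells (percent) with each number of *H19* UMIs, the last bar holding 15 or more, after thinning each cell to 3000 UMIs, in tendon-like code 1 and cartilage-like code 4 of the D10 culture and the E14.5 tail and somite-like code 4 of D6 PM. In the culture 48.1% and 40.2% of cells stand at 0 beside a second group with many UMIs, while the tail has 1 hump with 12.5% and 2.08% at 0.

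Culture cells with 0 *H19* UMIs were then set beside those with 5 or more. The classes were chosen after the spread had been seen, are ranges and not cell types, and share a library and a code. Their unthinned depths were alike in tendon-like cells, with medians of 5100.5 and 5050 UMIs. Few genes differed, 4 of 7883 by 2-fold in code 1 (0.0507%), 5 of 5701 in code 2 (0.0877%) and 5 of 3625 in code 4 (0.138%), with 8 of 9480 over the 3 codes together (0.0844%), and 0 of the other 8 members were among them in any of the 3 codes, although *Igf2* in code 4 passed 2-fold with a ratio of 2.21 when cells were thinned to 5000 UMIs. *Scx* was slightly higher in cells without *H19*, with ratios of 1.17, 1.16 and 1.2 in codes 1, 2 and 4.

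*Igf2* was higher in cells without *H19* in each of the 3 codes. In tendon-like cells it had 206 CPM in cells without and 140 CPM in cells with 5 or more *H19* UMIs, a ratio of 1.47 (1.30 to 1.66). The ratio was 1.63 (1.38 to 1.92) in cycling tendon-like cells, 228 against 140 CPM, and 1.99 (1.66 to 2.38) in cartilage-like cells, 402 against 202 CPM. From the highest, *Igf2* ranked 75 of 7883 genes in tendon-like, 20 of 5701 in cycling tendon-like and 2 of 3625 in cartilage-like cells. Cells with a UMI of both genes were correspondingly fewer than the product of both shares, 16.1% (14.7 to 17.5) against 19% in tendon-like and 26.1% against 32.3% in cartilage-like cells, while tendon-like cells of the tail had 26.0% (22.7 to 29.4) against 24.9%. *Grb10* was also higher in cells without *H19*, with ratios of 1.16, 1.14 and 1.28. *Nnat* was lower, with ratios of 0.768, 0.850 and 0.552, the last ranking 8 from the lowest of 3625 genes. *Mest* was also lower, with 0.877, 0.902 and 0.848. *Peg3* was at 0.881, 0.878 and 0.993, *Peg10* at 0.931, 0.789 and 0.661, *Plagl1* at 0.857, 1.16 and 1.0 and *Ndn* at 0.918, 0.923 and 1.01.

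Among genes with at least 100 UMIs in the 2 classes, the lowest ratio in all 3 codes was that of *Meg3*, the maternally expressed noncoding RNA of another imprinted locus. In tendon-like cells of the culture it had 73 UMIs, 19.5 CPM, in cells without *H19* and 427 UMIs, 147 CPM, in cells with 5 or more, a ratio of 0.133 (0.102 to 0.170), and the ratios were 0.119 and 0.0320 in codes 2 and 4. *Xist*, the noncoding RNA of the inactive X chromosome, had too few UMIs to be compared, 3 against 29 in code 1, 0 against 53 in code 2 and 0 against 13 in code 4. The highest ratio was that of another gene in each code, *Hbb-y*, an embryonic globin, with 3.61 in code 1, *Pcdh17* with 2.38 in code 2 and *Pomc*, a hormone precursor, with 147 against 4 UMIs and a ratio of 48.6 (18.6 to 181) in code 4. *Meg3* was 1 of 27 other imprinted genes compared in code 1 and the 1 called. *Hprt*, an X-linked enzyme of purine salvage named here after its values were seen, had ratios of 0.565 and 0.336 in codes 1 and 2 and 14 against 57 UMIs in code 4. In tendon-like cells of the tail, 85 cells without *H19* held less of 5 members than 200 cells with 5 or more, with ratios of 0.412 for *Igf2*, 0.409 for *Mest*, 0.405 for *Plagl1*, 0.509 for *Peg3* and 0.543 for *Grb10*. *Ndn* was at 0.908 (0.639 to 1.27) and *Nnat* at 1.25 (0.984 to 1.58), and *Peg10*, with 8 against 38 UMIs, was not compared. There 1.65% of 1758 genes were called, *Meg3* was at 0.518, and *Acta2*, a smooth muscle actin, was highest with a ratio of 6.73. The lowest was *Hbb-y*, with 16 against 476 UMIs and a ratio of 0.0791, and *Postn*, a matrix protein on the tendon list, was next with 0.223. The part of other cells or their RNA in these tail ratios was not tested. In fibroblast-like cells of D6 PM, *Lyz2*, a macrophage gene, had 523 UMIs in 277 cells without *H19* and 0 in 53 cells with 5 or more, so that the classes there also divide cells of different kinds. There 2.28% of 1752 genes were called, and in code 6 of D6 PM 1.53% of 653 genes were, *Hbb-y* and *Hba-x* among them.

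**Figure D5:**
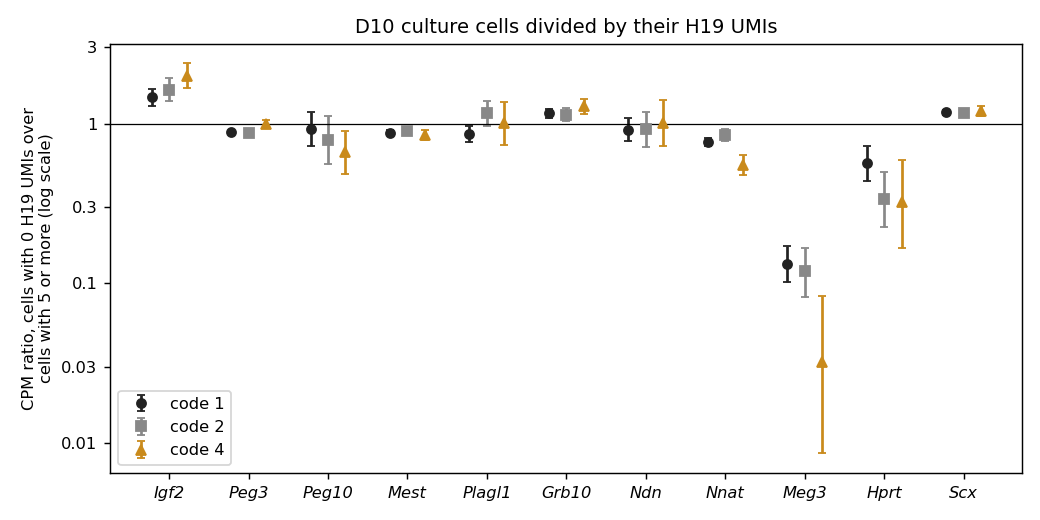
Ratio of CPM in D10 culture cells with 0 *H19* UMIs over cells with 5 or more, after thinning to 3000 UMIs, on a log scale with exact 95% counting intervals, for the other 8 members and *Meg3*, *Hprt* and *Scx* in codes 1, 2 and 4. *Igf2* lies above 1 in each code and *Meg3* between 0.0320 and 0.133.

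Over the 29 codes with at least 40 cells, 11 of the culture, 12 of the tail and 6 of D6 PM, the profile most like each gene was found by Pearson's correlation of log2(CPM + 1), among 8591 genes with at least 50 CPM in a code. These correlations are a description, since codes of a library share its depth and free RNA. *Igf2* and *H19* were each among the 3 nearest of the other (r = 0.869), as were *Igf2* and *Mest* (r = 0.876), but with a pseudocount of 10 CPM in place of 1 none of the 3 nearest genes of any member was a member. *Slc25a24* was nearest to *H19* (0.884), *Limch1* to *Igf2* (0.898) and to *Mest* (0.877), *Lrig3* to *Peg3* (0.913), *Piezo2* to *Plagl1* (0.817) and *Mpdz* to *Grb10* (0.876). *Asb4*, an imprinted neighbor of *Peg10*, was nearest to it (0.837). *Rtl8a* was nearest to *Ndn* (0.919) and *Sox11*, a transcription factor of neural cells, to *Nnat* (0.894). All 36 pairs of members had a positive r, from 0.246 for *Nnat* and *Peg10* to 0.876, with a median of 0.592, beside a median of 0.344 between a member and all genes.

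Other imprinted genes and genes of the IGF axis were read from lists for context. Of 51 other imprinted genes, 38 were compared between culture and tail in tendon-like cells, and 3 were higher and 11 lower, where 8.33% of 11898 genes were higher and 13.7% lower, with a median log2 ratio of -0.20 beside -0.18 over all genes. *Meg3* was at 71.6 against 3444 CPM, a ratio of 0.0208, and *Rtl1* at 4 against 96 UMIs, while *Zim1*, the neighbor of *Peg3*, was at 107 against 19.9 CPM, a ratio of 5.37, and *Ddc* at 3.38. Of 27 IGF axis genes 24 were compared in the same cells, and 3 were higher and 5 lower, beside the same background. *Igfbp7*, an IGF binding protein, had a ratio of 22.4, and *Stc2*, an inhibitor of the protease that frees IGF, rested on 399 against 5 UMIs. *Pappa*, that protease, and its relative *Pappa2* were lower with ratios of 0.0539 and 0.0360. From D6 PM to the D10 culture as a whole, 7 of 43 other imprinted genes were higher and 8 lower, with *Zim1* at 15.1 and *Asb4* at 0.118, and 7 of 26 IGF axis genes were higher and 5 lower, with *Igfbp7* at 17.3 and *Irs4* at 0.107. The background of that comparison was 10% higher and 10.8% lower. In cartilage-like against tendon-like cells 3 of 33 other imprinted genes were higher and 1 lower in the culture, where 6.88% of genes were called, and 4 of 36 were higher and 2 lower in the tail, where 9.74% were. *Dcn*, decorin of the collagen matrix and a marker on the tendon list, was lower, with ratios of 0.375 in the culture and 0.0242 in the tail. *Asb4* and *Phlda2*, a maternally expressed restraint on placental growth, were higher in the culture, with ratios of 5.07 and 4.85, and in the tail, with 6.6 and 11.9. Of the IGF axis, 2 of 20 genes were higher and 4 lower in the culture, beside the same background. In the tail 1 of 21 was higher and 6 were lower, with *Igf1* at 0.0534.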

How the data were processed

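Single cells of 3 libraries were measured with the 10x 3′ v3 kit, 1 library for each of D10 culture, E14.5 tail and D6 PM. The authors aligned and counted with cellranger, ignoring multi-mapping reads, and the submitters' processing notes name Seurat 3.0. The authors deposited unnormalized counts of UMIs, as whole numbers for every gene in each cell, from cells at or under 7.5% mitochondrial UMIs. CPM of summed UMIs, exact Poisson intervals, ratios with exact conditional binomial intervals and shares with exact binomial intervals were computed with Python 3.11.15, NumPy 2.4.6, SciPy 1.17.1 and pandas 2.3.3, and figures with Matplotlib 3.10.9. The total UMIs were 53403944, 31343741 and 51858825. A level needed 20 cells and a comparison 40 cells. Doublets called by Scrublet in Scanpy 1.11.5 at an expected rate of 6% (137, 9 and 98 cells) were left out only as an alternative. Clusters were named from marker lists. On simulated counts for culture over tail in code 1, 200 of 200 genes set to differ 4-fold were recovered among 11253 genes. In these counts 0 unchanged genes were called. Smaller differences, nearer to the 2-fold threshold, were not tested. Variation between replicate libraries was not tested, as each condition has 1 library. The members and lists were chosen with earlier results of these data known. Named genes were the members, the 3 most alike in profile for each (not all printed), at most 4 genes of a list per comparison, and cluster markers. For the *H19* classes, *Meg3*, *Hprt*, *Rian*, *Xist*, *Scx*, *Acta2*, *Lyz2*, *Postn*, *Pomc*, *Pcdh17*, *Tnfrsf11b* and the globins were named after their values were seen. Alternatives varied the CPM denominator, the weight of cells, the cells counted, centring, thinning depth and the measure of likeness.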

Additional observations from a re-analysis of the deposited data

Results flagged for a closer look

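Some members had ratios on opposite sides of 1 in culture and tail. In cycling over tendon-like cells, *H19* had a ratio of 1.09 in the culture and 0.908 in the tail, and *Peg3* 0.918 and 1.15. The median ratios of all genes there were 0.951 and 0.914, so that *H19* in the tail lay at the median, and none of these ratios passed 2-fold. In cartilage-like over tendon-like cells, *Mest* had 0.767 and 1.19, and *Nnat* 0.692 and 1.67. In tendon-like cells with 0 over those with 5 or more *H19* UMIs, *Igf2* had 1.47 in the culture and 0.412 in the tail, and *Grb10* 1.16 and 0.543. Each rests on 1 library a side, and the differences were not tested.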

How the results depend on the processing

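No paired analysis was possible because each condition has 1 library. Over 6 alternatives, 722 of 888 ratios of single members moved by less than their counting interval and 165 by more, 57 of them with each cell weighted equally. Of the ratios past 2-fold, 1 turned direction, *Peg3* in code 6 of culture over tail, from 3.38 to 0.721 when centred on the median ratio of all genes. Some ratios under 2-fold also changed side of 1 when centred. In culture over tail, the log2 ratio of *Mest* in code 6 went from 0.913 to -1.31, and that of *H19* in code 9 from -0.163 to 0.230. The number of members past 2-fold in culture over tail went from 2 to 4 in code 1 when centred, and from 1 to 2 in code 4 without mitochondrial and haemoglobin genes in the denominator, without doublets, with cells of at least 1000 genes, or without the 1% of cells with the most UMIs of the gene. In code 6 it went from 1 to 4 with that denominator, 2 without doublets, 4 with cells of at least 1000 genes and 5 when centred, and in code 7 from 2 to 1 with each cell weighted equally or when centred. The *H19* to *Igf2* ratio in tendon-like cells of the culture was 8.73 with each cell weighted equally. At 5000 UMIs a cell, cells with both genes were 24.3% in the culture and 41.0% in the tail, and culture cells without *H19* fell to 42.5%, 39.2% and 29.2% in codes 1, 2 and 4, while *Igf2* in cells without *H19* over cells with 5 or more was at 1.41, 1.76 and 2.21, the last past 2-fold where it had been 1.99. The alternatives for cells without *H19* were chosen after seeing the data. With a pseudocount of 10 CPM, 0 in place of 4 of the nearest genes were members. The cause of these changes was not tested. Depth limits *Igf2* and *Peg10* in codes of few cells.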

Other observations

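Over codes 1, 2 and 4 of the culture together, 2105 cells without *H19* were set beside 1853 cells with 5 or more *H19* UMIs at 3000 UMIs a cell, and 8 of 9480 genes differed by 2-fold (0.0844%). Among genes with at least 100 UMIs the 3 lowest ratios were those of *Meg3*, 0.115 (0.0935 to 0.140), *Rian*, a maternally expressed noncoding RNA of the same locus, 0.187 (0.123 to 0.275), and *Hprt*, 0.460 (0.378 to 0.559). By code 1, 2 and 4, *Dlk1*, the paternally expressed gene of that locus, was at 1.12, 1.03 and 1.36, *Igf2r*, the maternally expressed receptor that clears IGF2, at 1.2, 1.2 and 1.37, and *Cdkn1c*, a maternally expressed cell cycle inhibitor, at 1.06, 1.03 and 1.06. *Xist*, the noncoding RNA of the inactive X chromosome, had 3 UMIs in the cells without *H19* and 95 in the others, under the 100 UMIs set for a comparison. The highest ratios were those of *Pomc*, 10.4 (6.01 to 19.4) on 165 against 14 UMIs, of which code 4 alone held 147 and 4, *Hbb-y*, 2.95, and *Tnfrsf11b*, a decoy receptor that restrains osteoclasts, 2.42. *Igf2* ranked 37 from the highest of the 9480 genes, with a ratio of 1.56 (1.43 to 1.70).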
